A study of Mus musculus with 34 samples.

Results

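The neocortex of 5 mice injected with kainate was compared with that of 6 mice injected with nicotine, on 11 of the 34 arrays of a study of the neocortex and hippocampus of young mice. The members were chosen by the sample titles alone, and none was left out. All mice were males that received 3 intraperitoneal injections, 2 h apart, on postnatal day 23, and only survivors were killed 1 week later, on postnatal day 30. Kainate was given at 15 mg/kg and nicotine at 10 mg/kg per injection, each in sterile saline. The 6 saline neocortex arrays come from other mice and took no part in the main test, so their levels are set beside both drugs. The strain is not given in the sources used here. A difference between the drug groups can come from either drug, and the selection of survivors applies to both.

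Kainate activates kainate-type and AMPA-type glutamate receptors, and repeated doses provoke limbic seizures that injure hippocampal neurons most. Nicotine opens nicotinic acetylcholine receptors, ion channels of neurons that high doses can also drive to convulsions. After a seizure or an injury, astrocytes enlarge and make more of the intermediate filament protein GFAP, and microglia, the resident phagocytes of the brain, make more lysosomal proteases, complement C1q and antigen-presenting molecules. Immediate early genes respond to seizures within minutes to hours and usually return to baseline well before a week has passed.

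The values are MAS5 signals, the brightness of a probe set on an oligonucleotide array scaled by the authors to a common array level. A probe set was called when its adjusted p was under 0.05 in limma's moderated test with Benjamini-Hochberg adjustment over all 8695 probe sets tested. Median signals ran from 382 to 413 on the kainate arrays and from 382 to 418 on the nicotine arrays, and the 3'/5' signal ratio of Gapdh, a sign of RNA integrity, ran from 0.869 to 0.967 and from 0.889 to 0.955. The arrays were clustered by their hybridisation control spots, with the number of clusters set at 3, and the neocortex arrays of each treatment fell into all 3. In the neocortex the second cluster held 1 kainate, 2 nicotine and 2 saline arrays. The third and smallest held 1 array of each treatment. These arrays also had the highest single signals, but those were read with the control spots included, so they are no separate trait. The labels name no batch, so results are also given within or without these clusters where that moves a call. Tbr1, Cux2, Mef2c and Rgs4, genes of cortical projection neurons, were higher on all 11 neocortex arrays than on all 11 hippocampus arrays of the drug-treated mice. Prox1, Dsp, Zbtb20, Npy2r and Lct, genes of the hippocampus, were lower on all of them, so the labelled region was borne out by its markers. Ttr, a marker of the choroid plexus, ran from 108 to 2001 on the neocortex arrays.

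Gfap, which encodes the main intermediate filament of astrocytes, was the only probe set called between kainate and nicotine in the neocortex, and it rose 2.05-fold. It was 1 of 8695 probe sets, or 0.0115%. The 5 kainate arrays read 4637, 4526, 2840, 2792 and 3174. The 6 nicotine arrays ran from 1490 through a median of 1724 to 1828, and the 6 saline arrays from 1332 through 1670 to 2083. Every kainate array therefore lay above every nicotine and every saline array, and kainate arrays 1 and 2 stood higher than the other 3. The means were 3594 ± 914 (SD, n = 5) with kainate and 1702 ± 128 (SD, n = 6) with nicotine. The log2 fold change was 1.04 ± 0.136 (SE), with a limma adjusted p of 0.0131. The nicotine and saline groups overlapped, and limma's fit of the 17 neocortex arrays put nicotine 0.03 above saline and kainate 1.07 above saline on the log2 scale. A dimmer Gfap probe set read 1193, 1289, 1054, 776 and 1039 with kainate and ran from 360 through 626 to 756 with nicotine. These groups did not overlap either, but its log2 fold change of 0.88 ± 0.187 (SE) was not called (limma adjusted p 0.478).

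**Figure D1:**
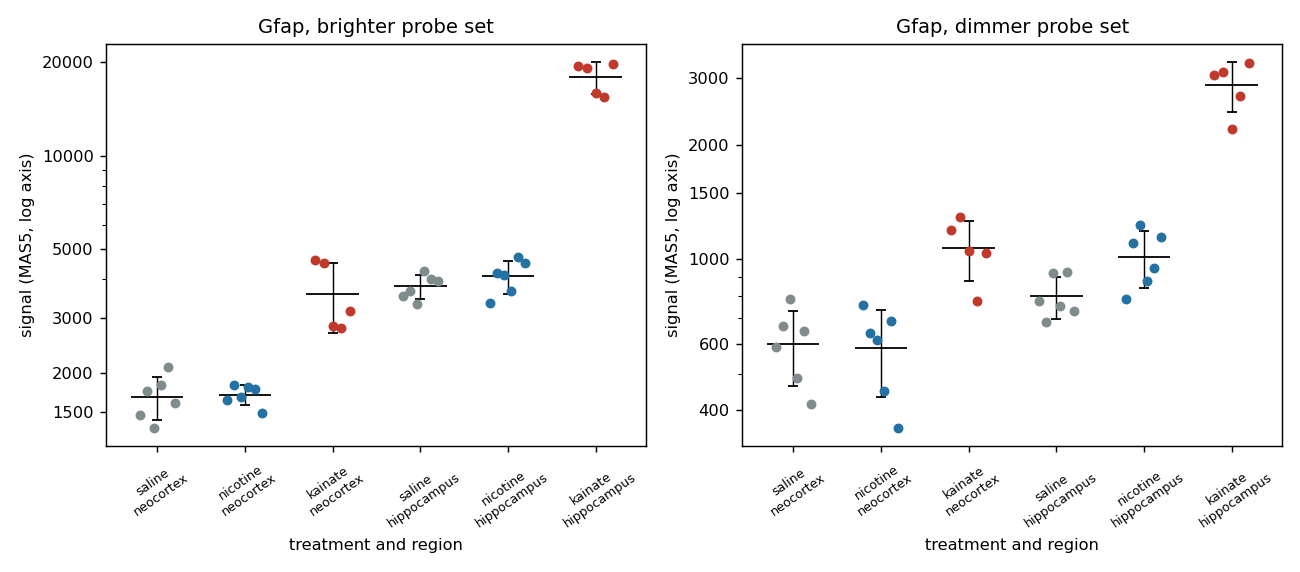
Signal of the brighter (left) and dimmer (right) Gfap probe set on each array, on a log axis, by treatment and region. Points are arrays, horizontal lines are group means and bars are ± 1 SD. The 5 kainate neocortex points of the brighter probe set lie above all nicotine and saline neocortex points, and the kainate hippocampus points lie from 15433 to 19751.

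Gfap stayed higher with kainate under every alternative run, while its call was lost under several. Within the largest control cluster, with 3 arrays a group, the difference was 1.18, in the second cluster 0.64 and in the third 1.08 on the log2 scale, and the fit of the largest cluster alone gave an adjusted p of 0.213. Without nicotine array 1 the limma adjusted p was 0.0562, and without nicotine array 3 it was 0.0527, at log2 fold changes of 1.03 in both fits. With 1 common variance prior in place of limma's intensity trend the adjusted p was 0.0769. Without the third control cluster it was 0.0852. In bulk tissue, more astrocytes and more Gfap RNA per astrocyte cannot be told apart, and the same holds for every cell type named below.

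No other marker of astrocytes was called. Of 17 tested genes of reactive astrocytes, 1 was called, and 3 were higher and 1 lower at an unadjusted p under 0.05, where 2.09% of all probe sets were higher and 2.37% lower. Their median log2 fold change was 0.13, against -0.00 for all probe sets. S100a6, a small calcium-binding protein of reactive glia, read 2224, 1821, 1556, 1684 and 1477 with kainate and ran from 1016 through 1118 to 1290 with nicotine. The groups did not overlap, and the saline arrays, from 1193 to 1574, overlapped both. Its log2 fold change of 0.61 ± 0.112 (SE) was not called (limma adjusted p 0.131). Limma called it under 3 of 14 alternatives, with array weights and in the fits of all 34 and of the 17 neocortex arrays. It was called in 0 of 11 fits that left out 1 array. Serpina3n, a secreted protease inhibitor of reactive astrocytes, averaged 1329 ± 149 (SD, n = 5) with kainate and 1088 ± 156 (SD, n = 6) with nicotine, with 2 of 5 kainate arrays above all nicotine arrays. Its log2 fold change was 0.29 ± 0.118 (SE), and limma's adjusted p was 0.998. Vim, a second intermediate filament of reactive astrocytes, gave 0.17 ± 0.245 (SE). Cebpd, a transcription factor induced by inflammation and by glucocorticoids, was the 1 member lower at an unadjusted p under 0.05, at -0.73 ± 0.256 (SE).

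Of 13 tested genes of astrocytes at rest, none was called by limma, 2 were higher and 1 lower at an unadjusted p under 0.05, and the median was 0.06. Aqp4, the water channel of astrocyte endfeet, read 2788, 3075, 2596, 2408 and 2256 with kainate against 1681 to 2512 with nicotine. Its log2 fold change was 0.29 ± 0.115 (SE, limma adjusted p 0.998), with 3 of 5 kainate arrays above all nicotine arrays, and a second Aqp4 probe set gave 0.30 ± 0.136 (SE). Clu, the secreted chaperone clusterin, gave 0.26 ± 0.084 (SE). Gjb6, the gap junction protein connexin 30 of astrocytes, gave -0.25 ± 0.091 (SE), and all 5 kainate arrays lay below all nicotine arrays. The summed signal of the 23 measured genes of reactive astrocytes ran from 21171 to 25568 with kainate and from 19327 to 22780 with nicotine. Without Gfap these sums ran from 18379 to 22393 and from 17498 to 21108, so they overlapped in both cases. List members named here and below that are not in the plots were chosen after their values were seen.

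Genes of microglia and macrophages lay slightly higher with kainate, and none of the 21 tested was called by limma. At an unadjusted p under 0.05, 4 were higher and 1 lower, which is 19.0% and 4.76% of them, and 17 of 21 lay above 0, where 4253 of all 8695 probe sets did. The median log2 fold change of the list was 0.13. These genes are expressed by the same cells and are not independent of each other. Ctss, the lysosomal protease cathepsin S, read 4460, 4184, 4211, 4312 and 3782 with kainate. It ran from 2584 through 3041 to 3380 with nicotine and from 2406 through 3090 to 3348 with saline. All 5 kainate arrays lay above all nicotine and all saline arrays, and the nicotine and saline arrays covered nearly the same range. Its log2 fold change was 0.48 ± 0.083 (SE), a 1.40-fold difference that was not called (limma adjusted p 0.102). Within the 3 control clusters it was 0.47, 0.49 and 0.55, and with the clusters as a block limma called it (adjusted p 0.025).

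The 3 subunits of complement C1q gave 0.22 ± 0.090 (SE) for C1qa, 0.22 ± 0.115 (SE) for C1qb and 0.34 ± 0.107 (SE) for C1qc, and none was called by limma. C1qa read 3831, 3394, 2967, 3672 and 3234 with kainate against 2600 to 3233 with nicotine, so 4 of 5 kainate arrays lay above all nicotine arrays. Tyrobp, the adaptor of the microglial receptor TREM2, averaged 946 with kainate, 634 with nicotine and 731 with saline, a log2 fold change of 0.60 ± 0.214 (SE). Cd52, a surface glycoprotein of leukocytes, lay the other way, at -0.50 ± 0.201 (SE), and Mpeg1, a pore-forming protein of macrophages, gave -0.21 ± 0.141 (SE). The summed signal of the 30 measured microglial genes ran from 33557 to 38807 with kainate and from 31396 to 33279 with nicotine, which does not overlap. Of the 32 lists, the sums of 5 did not overlap between the drugs, 3 with kainate higher and 2 with kainate lower. These were noticed after the values were seen. Leading members were then left out of each but the list of cell death and injury. Without Ctss the sums ran from 29609 to 34348 and from 28240 to 30485, and they overlapped. Complement genes, which share the C1q genes with this list, ran from 23454 to 28568 and from 20566 to 23121, and without C1q they overlapped, at 15640 to 19572 and 13582 to 15887. Of the remaining microglial genes, 9 were measured but too dim to be tested, Aif1, Itgam, Ptprc and Lgals3 among them.

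Antigen presentation and interferon genes showed no called member. Of 15 tested genes of MHC class I and antigen presentation, 2 were higher at an unadjusted p under 0.05, and the median was 0.13. B2m, the light chain of class I molecules, gave 0.19 ± 0.205 (SE), and H2-D1 gave 0.16 ± 0.101 (SE). Class I genes are near-identical paralogs whose probe sets can bind each other's RNA, so single values for them are uncertain. Of 14 tested interferon response genes, 1 was higher at an unadjusted p under 0.05, and the median was 0.16. That gene, Irf1, a transcription factor induced by interferon gamma, read 347, 412, 210, 351 and 493.2 with kainate. It ran from 81.8 through 117 to 327 with nicotine, where array 3 stood far above the other 5, and from 183 through 268 to 456 with saline. Nicotine was thus the low group by its median, but its array 3 lay within the saline range, and kainate overlapped saline too. The log2 fold change against nicotine was 1.33 ± 0.314 (SE), and it was not called (limma adjusted p 0.500).

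The gene with the smallest p after Gfap was Wfs1, which encodes wolframin, a membrane protein of the endoplasmic reticulum that is rich in pyramidal neurons of hippocampal field CA1 and in upper cortical layers. Its kainate arrays read 3282, 3584, 2799, 3120 and 3419. The nicotine arrays ran from 1738 through 2056 to 2489 and the saline arrays from 1904 through 2326 to 2578. Every kainate array lay above every nicotine and saline array. The log2 fold change was 0.61 ± 0.101 (SE), a 1.53-fold difference with a limma adjusted p of 0.0867. Limma called it without nicotine array 4 (adjusted p 0.0493), with the control clusters as a block (0.0339) and in the fit of all 17 neocortex arrays (0.0187). In all it was called under 4 of 14 alternatives and in 1 of 11 fits that left out 1 array, with adjusted p up to 0.357 and 0.382 in the others. Within the 3 control clusters the difference was 0.73, 0.45 and 0.54.

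Wfs1 also stood on the list of genes enriched in hippocampal neurons, whose summed signal over 17 measured members ran from 17433 to 19088 with kainate and from 13354 to 17099 with nicotine. Without Wfs1 these sums were 14241 to 16289 and 11005 to 15267, and they overlapped. Of the 14 tested members, 2 were higher at an unadjusted p under 0.05, Wfs1 and Crym, a thyroid hormone binding protein, at 0.39 ± 0.149 (SE). The defining markers Prox1 and Dsp averaged 97.6 and 148 with kainate against 80.0 and 105 with nicotine, and their mean levels over the 11 arrays were too low for testing. The part of carried-over hippocampal tissue in the Wfs1 and Gfap values was not tested. In the hippocampus itself, Wfs1 was not higher with kainate, at 3393 against 4094 with nicotine.

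The other 7 genes of smallest p with kainate higher were Irf1, Ceacam2, Kcne1l, Flot1, Epha5, Mrpl41 and Ctsa, and limma called none of them. Flot1, a scaffold protein of membrane rafts, read 4065, 4586, 4207, 4377 and 4334 against 2899 to 4056 with nicotine. Ctsa, the lysosomal protease cathepsin A, read 1800, 1654, 1717, 1634 and 2139 against 1172 to 1493. Both groups were separated from nicotine and overlapped saline. The log2 fold change was 0.37 ± 0.096 (SE) for Flot1 and 0.36 ± 0.0995 (SE) for Ctsa. Epha5, a receptor of ephrins in axon guidance, gave 0.51 ± 0.135 (SE), though a dim second probe set gave 0.10 ± 0.406 (SE). Mrpl41, a protein of the mitochondrial ribosome, averaged 1852 with kainate, 1300 with nicotine and 1876 with saline, so nicotine was the low group by its mean, though it overlapped saline. Ceacam2, a cell adhesion molecule, and Kcne1l, a potassium channel subunit, were dim, at 298 and 287 with kainate and 141 and 119 with nicotine, and each had nicotine array 2 above part of the kainate arrays. In the largest control cluster alone Kcne1l differed by 0.80, against 1.20 over all arrays. The level filter cut at a signal of 129, and the Kcne1l nicotine mean lay under it. Kcne1l was therefore bright enough for testing only through its kainate arrays, and its place among the smallest p supports nothing. Over all probe sets, 24 had every kainate array above every nicotine array (0.276%), and Gfap, Wfs1, Ctss, S100a6, Flot1 and Ctsa were among them.

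**Figure D2:**
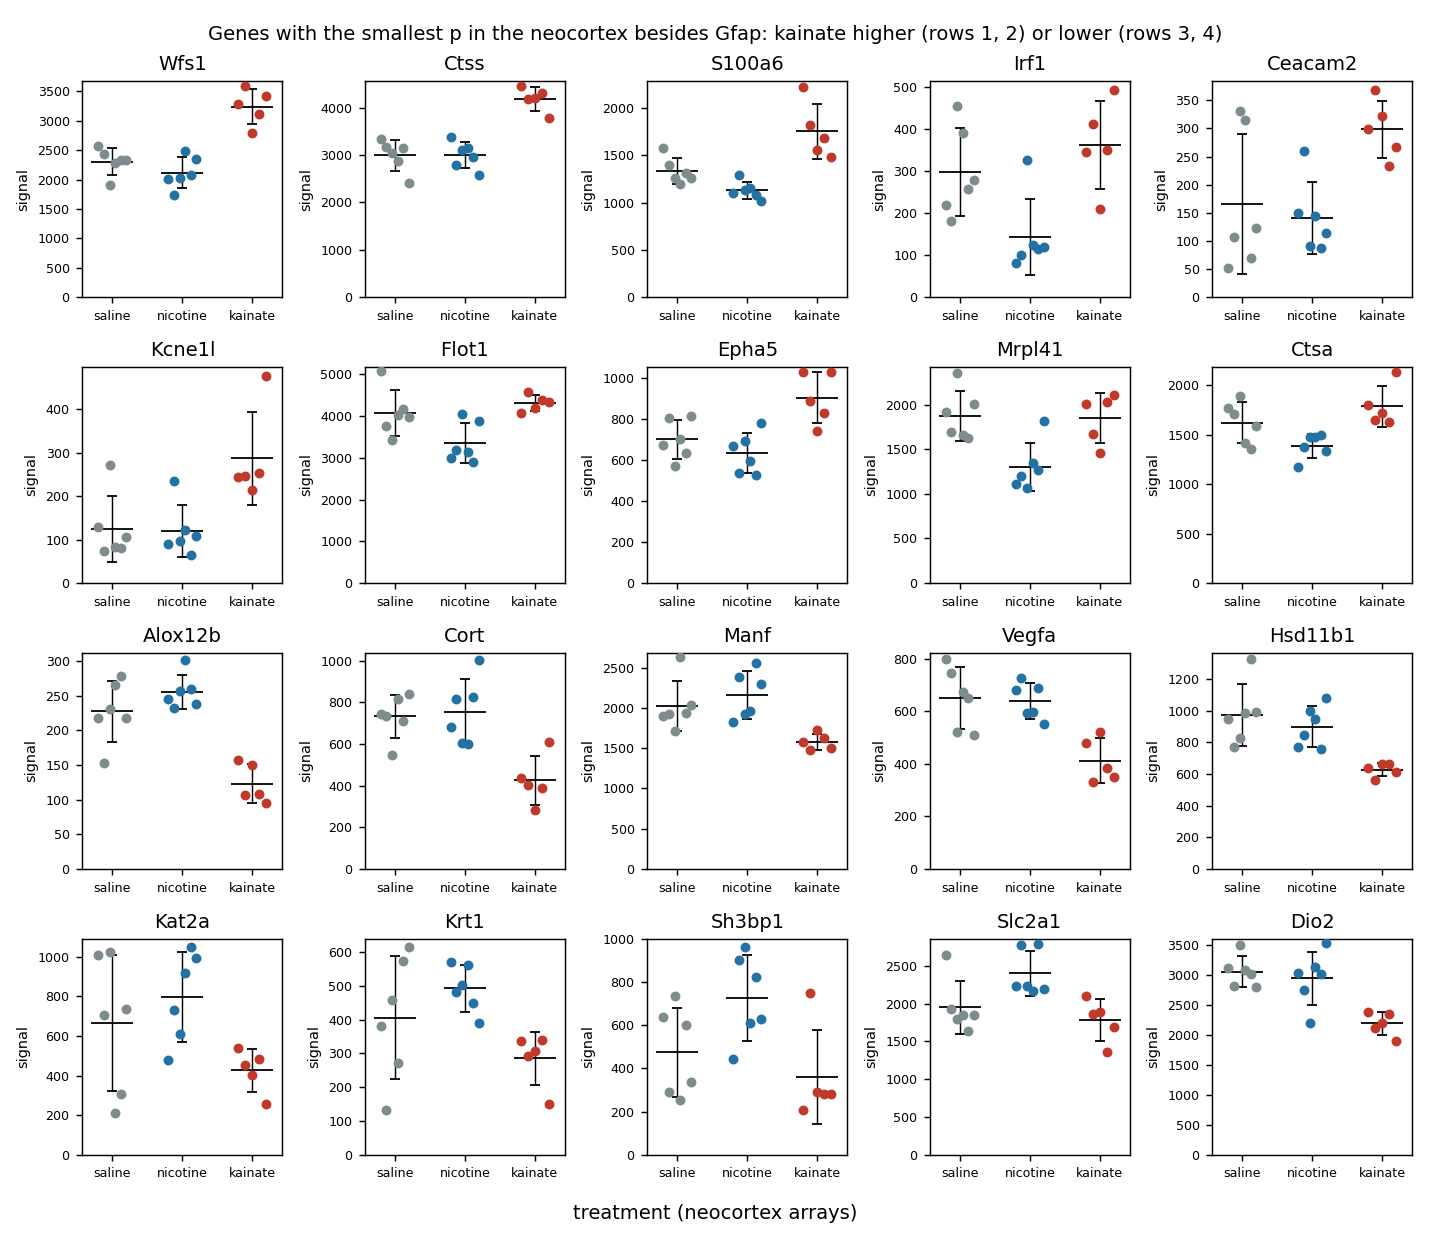
MAS5 signal on each neocortex array for the 20 genes of smallest p besides Gfap, on linear axes that start at 0. Points are arrays, horizontal lines are means and bars are ± 1 SD. The kainate points of Wfs1 and Ctss lie above all other points of their panels, those of Hsd11b1 lie below all others, and the high nicotine point of Irf1 is array 3 at 327.

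No probe set was called lower with kainate, and the 10 genes of smallest p in that direction are given as such. In all, 206 probe sets (2.37%) were lower at an unadjusted p under 0.05, and 20 (0.23%) had every kainate array below every nicotine array. Hsd11b1, the enzyme that regenerates active glucocorticoid inside cells, read 637, 562, 663, 661 and 612 with kainate. It ran from 755 through 894 to 1078 with nicotine and from 767 through 966 to 1327 with saline. All kainate arrays lay below all nicotine and saline arrays, and the kainate arrays were tightly grouped. The log2 fold change was -0.50 ± 0.120 (SE, limma adjusted p 0.541). Dio2, the astrocytic enzyme that converts thyroxine to active thyroid hormone, read 2390, 2120, 2201, 2349 and 1896 with kainate. The nicotine arrays ran from 2199 through 3020 to 3526 and the saline arrays from 2794 through 3054 to 3495. Kainate lay below all saline arrays, but the lowest nicotine array overlapped it, and the log2 fold change was -0.41 ± 0.111 (SE, limma adjusted p 0.664). Within the 3 control clusters it was -0.24, -0.39 and -0.89.

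Vegfa, the main growth factor of blood vessels, read 480, 330, 522, 383 and 350 with kainate against 551 to 726 with nicotine and 508 to 800 with saline. Its log2 fold change was -0.63 ± 0.148 (SE, limma adjusted p 0.500), with kainate below every nicotine array. Manf, a secreted protein induced by stress of the endoplasmic reticulum, read 1581, 1473, 1723, 1622 and 1498 against 1820 to 2553, at -0.44 ± 0.102 (SE). Slc2a1, the glucose transporter of the blood-brain barrier, read 2106, 1857, 1885, 1356 and 1692 against 2167 to 2790 with nicotine and 1639 to 2641 with saline. Both drugs overlapped saline for this gene. Against saline, nicotine lay farther off, at 0.31 on the log2 scale, and kainate lay at -0.13. Cort, the interneuron peptide cortistatin, averaged 425 ± 119 (SD, n = 5) with kainate, 755 ± 156 (SD, n = 6) with nicotine and 732 ± 103 (SD, n = 6) with saline. Its highest kainate array, at 611.5, reached into the nicotine range, and the log2 fold change was -0.82 ± 0.187 (SE, limma adjusted p 0.496).

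Alox12b and Krt1, a lipoxygenase and a keratin known from the epidermis, gave -0.98 ± 0.216 (SE) and -0.79 ± 0.205 (SE). Both were dim, Alox12b at 123 with kainate and 256 with nicotine and Krt1 at 286 and 492.8, and both were separated from nicotine on every array. The Alox12b kainate mean lay under the level filter, which cut at a signal of 129. Alox12b was therefore bright enough for testing only through its nicotine arrays, and its place among the smallest p and its separation support nothing. Kat2a, a histone acetyltransferase, gave -0.87 ± 0.221 (SE), and its saline arrays spread from 211 to 1022 across both drug groups. Within the 3 control clusters its difference was -0.36, -1.003 and -1.89. Sh3bp1 gave -1.08 ± 0.278 (SE), with 4 of 5 kainate arrays below all nicotine arrays and kainate array 2 at 747. On this scale, log2 of signal plus 16, the differences of dim genes are understated.

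Set against saline, the genes differed in which drug lay farther from it. The comparisons with saline share the kainate and the nicotine arrays with the main comparison, and the genes were chosen for their kainate-nicotine difference, so the values are a description. Among the 10 uncalled genes that were higher with kainate, the kainate group lay farther from saline for 6 and the nicotine group for 4. Among the 10 that were lower, kainate lay farther for 7 and nicotine for 3. Ctss lay 0.49 above saline with kainate and 0.00 with nicotine, while Vegfa lay at -0.64 with kainate and -0.01 with nicotine. Irf1 lay at 0.29 with kainate and -1.04 with nicotine, and Mrpl41 at -0.02 and -0.53. In the fit of the 17 arrays limma called 1 probe set between kainate and saline (0.0115%), again Gfap. It called 0 between nicotine and saline (0%), where 835 probe sets (9.60%) had an unadjusted p under 0.05. Between kainate and saline 484 (5.57%) had one, and between kainate and nicotine, in the main fit, 388 (4.46%).

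**Figure D3:**
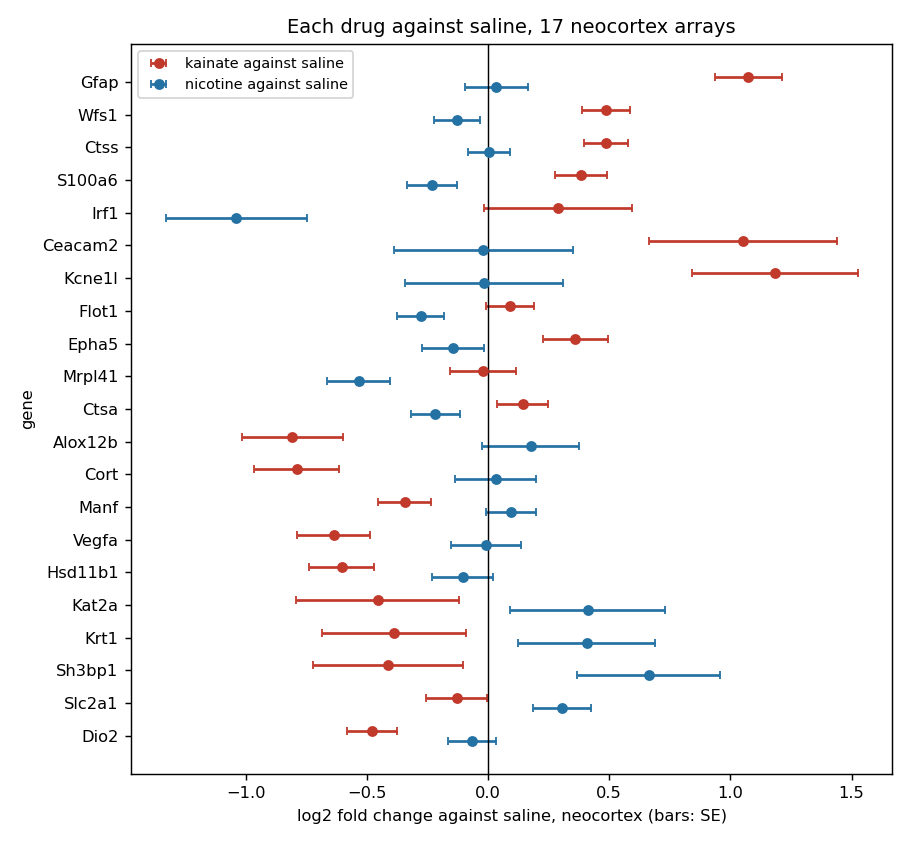
Log2 fold change of kainate (red) and nicotine (blue) against saline for Gfap and the 20 uncalled genes of smallest p, from limma's fit of the 17 neocortex arrays. Bars are standard errors. Gfap with kainate lies at 1.07 and with nicotine at 0.03, while for Irf1, Mrpl41 and Slc2a1 the nicotine point is the one farther from 0.

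Targets of the glucocorticoid receptor, the nuclear receptor of the stress hormone corticosterone, were the list with the largest share of lower members. None of the 21 tested was called by limma. At an unadjusted p under 0.05, 6 were lower and 0 higher, which is 28.6% of them against 2.37% of all probe sets, 17 lay below 0 and the median was -0.21. Fkbp5, a co-chaperone of the receptor, read 1691, 1462, 1563, 1509 and 1619 with kainate. It ran from 1626 through 2157 to 2384 with nicotine and from 1397 through 1651 to 1835 with saline. Both drugs overlapped saline, and 4 of 5 kainate arrays lay below all nicotine arrays. Against saline, nicotine lay farther off, at 0.31 on the log2 scale, and kainate lay at -0.06, and limma called neither. Its log2 fold change was -0.37 ± 0.105 (SE, limma adjusted p 0.737). Sgk1, a kinase induced by glucocorticoids, averaged 1532 with kainate, 2194 with nicotine and 1593 with saline. Cebpd averaged 300, 492.6 and 325 and Hif3a, a hypoxia-inducible factor subunit, 239, 427 and 312 in the same order. Cdkn1a, an inhibitor of the cell cycle, averaged 977, 1341 and 1188, with saline in between. Nfkbia, the inhibitor of NF-kappa B, averaged 1343, 1607 and 1702, with kainate the low group. The median of the list was -0.09 for kainate and 0.10 for nicotine against saline, fits that share their arrays with the main comparison, and in the hippocampus kainate against nicotine gave -0.21. Summed over its 24 measured members the list ran from 54001 to 56058 with kainate and from 56568 to 61524 with nicotine, and without Mt1 and Mt2 the sums overlapped, at 21662 to 26951 and 25383 to 33331. The fifth list without overlap was that of cell death and injury, at 13189 to 13817 with kainate and 13880 to 15606 with nicotine, and no sum without its leading members was made.

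Activity-dependent and stress genes lay slightly lower with kainate. Of 27 tested immediate early genes, 0 were called by limma, 3 were lower and 0 higher at an unadjusted p under 0.05, and the median was -0.12. Fos read 1332, 1308, 1942, 1326 and 500 with kainate against 677 to 2162 with nicotine, a log2 fold change of -0.28 ± 0.319 (SE) that turned positive when kainate array 5 was left out, at 0.03. Fosb gave -0.33 ± 0.116 (SE), Nr4a1 -0.33 ± 0.187 (SE) and Egr1 0.18 ± 0.113 (SE), all within overlapping groups. Of 31 tested genes of heat shock and stress of the endoplasmic reticulum, 3 were lower at an unadjusted p under 0.05 (Manf, Canx and Serpinh1) and 23 lay below 0. Hspa5, the central chaperone of the endoplasmic reticulum, gave -0.26 ± 0.144 (SE). The circadian gene Per1 gave -0.19 ± 0.200 (SE).

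Neuronal genes showed no called difference. Of 13 tested genes of AMPA, kainate and NMDA receptors, the direct targets of kainate among them, none had an unadjusted p under 0.05, and the median was 0.02. Gria1 gave -0.06 ± 0.095 (SE), Gria2 0.03 ± 0.083 (SE), Grik2 0.02 ± 0.132 (SE) and Grik5 -0.01 ± 0.087 (SE), and the sign of the last 3 turned under other scalings or with single arrays left out. Of 9 tested nicotinic and cholinergic genes none had an unadjusted p under 0.05 either, and Chrna7, a nicotinic receptor subunit, gave 0.28 ± 0.194 (SE). Of 20 tested neuropeptides and trophic factors, 15 lay below 0, and Cort was the 1 member with an unadjusted p under 0.05. Sst gave -0.07 ± 0.137 (SE), Npy 0.11 ± 0.089 (SE), Cck 0.07 ± 0.114 (SE), Penk -0.45 ± 0.212 (SE), with 0.08 for a second probe set, and Bdnf -0.27 ± 0.138 (SE). The GABA-synthesising enzyme Gad1 gave -0.03 ± 0.107 (SE) and the myelin protein Mbp -0.10 ± 0.076 (SE). Mt1 and Mt2, metal-binding proteins of stressed glia, gave 0.05 ± 0.087 (SE) and 0.00 ± 0.069 (SE), and the cholesterol synthesis enzyme Idi1 -0.01 ± 0.109 (SE). Ttr gave 0.02 ± 0.702 (SE), with arrays from 175 to 2001 within the kainate group. The signs for Sst, Gad1, Mt1, Mt2, Idi1 and Ttr turned when single arrays were left out, and that of Chrna7 turned in the largest control cluster alone, at -0.06. Summed blood cell genes ran from 21797 to 47203 with kainate and from 32919 to 50839 with nicotine.

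The same contrast in the hippocampus called 187 probe sets (2.15%), 168 higher and 19 lower with kainate, and 256 with the replicate numbers as a block, 196 higher and 60 lower, so the neocortex was set beside it. Of 152 probe sets called higher there and also tested in the neocortex, 120 had the same sign in the neocortex 26 had it at an unadjusted p under 0.05, and 1, Gfap, was called. For 63 of the 152 the difference itself was called, each time with the lower value in the neocortex. These probe sets were chosen by their hippocampal values, which also enter the difference, so its direction here is a description. Their median log2 fold change was 0.14 in the neocortex and 0.95 in the hippocampus. Of 19 called lower there, 13 had the same sign in the neocortex, and the medians were -0.06 and -0.47. The test of the difference between regions, an interaction term over 22 arrays, called 73 probe sets (0.84%), and 77 with a replicate block. That block joined the neocortex and hippocampus arrays of the same drug and number. Such arrays had r from -0.10 to 0.11, so this pairing was not borne out. For 67 of the 73 the kainate-nicotine difference was lower in the neocortex, at a median of 0.13 against 1.38 in the hippocampus, and for 6 it was higher. These probe sets were chosen by that difference, so the gap between the medians is a description. Which neocortex and hippocampus arrays belong to 1 mouse is not given in the labels, so the fit with 73 calls treated all 22 as independent.

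Gfap rose in both regions, and its rise was smaller in the neocortex. With kainate it reached 17939 ± 2092 (SD, n = 5) in the hippocampus, against 4097 ± 504 (SD, n = 6) with nicotine. The difference between regions was -1.09 ± 0.176 (SE) on the log2 scale (limma adjusted p 0.000848). Of the 17 members of the reactive astrocyte list tested in both regions, 5 were called higher in the hippocampus, where 168 of all 8695 probe sets were. Between regions 4 of the 17 were called different, each with the lower value in the neocortex, against 67 of all 8695 probe sets. Serpina3n was among these 4, at 0.29 in the neocortex and 1.62 in the hippocampus, a difference of -1.33 ± 0.168 (SE, limma adjusted p 3.16e-05).

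Over members tested in both regions, microglial genes had the widest gap between the regions' medians among the 32 lists. Of 21 such members, 16 were called higher in the hippocampus, where 168 of all 8695 probe sets were. The median of the 21 was 1.496 there and 0.13 in the neocortex. Between regions 14 of the 21 were called different, all with the lower value in the neocortex, against 67 of all 8695 probe sets. Mpeg1 read 850, 742, 521, 905 and 735 with kainate in the neocortex and 6031, 7745, 3822, 5370 and 5730 in the hippocampus. With nicotine it ran from 765 to 1017 and from 531 to 792, so the kainate groups of the regions were far apart and the nicotine groups nearly alike. The difference was -3.22 ± 0.215 (SE, limma adjusted p 7.17e-10). Ctss, separated from nicotine on every array of both regions, gave 0.48 in the neocortex and 2.04 in the hippocampus, a difference of -1.56 ± 0.163 (SE, limma adjusted p 1.41e-06). C1qa differed by -1.65 ± 0.175 (SE, limma adjusted p 1.52e-06), B2m by -1.80 ± 0.320 (SE, 0.00286) and Lgals3bp, a secreted interferon-induced glycoprotein, by -2.05 ± 0.234 (SE, 5.36e-06). Ifit3, an interferon-induced antiviral protein, differed by -2.43 ± 0.350 (SE, 0.000159) and Cd52 by -2.34 ± 0.461 (SE, 0.00742). Csf3r, the receptor of a granulocyte growth factor, differed by -2.74 ± 0.512 (SE, limma adjusted p 0.00482) on a dimmer probe set, while the brightest one, which stands for the gene, gave -0.12 and was not called.

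Zfp36, an mRNA-destabilising protein, and Lag3, an immune receptor that was too dim to be tested in the neocortex alone, were also called, at -2.33 ± 0.553 (SE, limma adjusted p 0.0385) and -2.12 ± 0.487 (SE, 0.0293). Lag3 averaged 797 in the kainate hippocampus and from 93.7 to 184 in the other 3 groups, so it was bright enough for testing only through the group where it was high, and its call supports nothing. The Zfp36 call was lost in 18 of 22 fits that left out 1 array, with an adjusted p up to 0.0931, and was kept without kainate arrays 2 or 3 or nicotine array 2 of the neocortex or nicotine array 4 of the hippocampus. The Lag3 call was lost without kainate arrays 1 or 5 of the neocortex, kainate arrays 1, 2 or 5 of the hippocampus, or nicotine arrays 5 or 6 of the hippocampus, with an adjusted p up to 0.0804.

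The 6 genes whose difference was higher in the neocortex all lay below 0 in the hippocampus. Wfs1 gave 0.61 in the neocortex and -0.26 in the hippocampus, a difference of 0.87 ± 0.165 (SE, limma adjusted p 0.00546). Calb1, the calcium buffer calbindin, averaged 3121 and 3025 with kainate and nicotine in the neocortex and 1572 and 2457 in the hippocampus, a difference of 0.69 ± 0.132 (SE, 0.00593). Cpne6, a calcium-dependent membrane-binding protein of neurons, averaged 5923 and 4949 in the neocortex and 12340 and 15884 in the hippocampus, a difference of 0.62 ± 0.123 (SE, 0.00758). These 3 kept their calls in all 22 fits that left out 1 array, and each lost it in the largest control cluster alone, at limma adjusted p of 0.0552, 0.252 and 0.160. Cnih2, an auxiliary subunit of AMPA receptors, differed by 0.56 ± 0.128 (SE, 0.0297) and Cdc42se2, an effector of the GTPase CDC42, by 0.39 ± 0.092 (SE, 0.0365). Both, and Prkce, were called under 8 of 13 other alternatives. The first lost its call in 12 of those 22 fits, with a limma adjusted p up to 0.0754, and kept it without kainate array 3 or nicotine arrays 1, 2, 3 or 6 of the neocortex, or kainate arrays 2 or 3 or nicotine arrays 1, 2 or 6 of the hippocampus. The second lost it in 15, with an adjusted p up to 0.0890, and kept it without kainate array 3 or nicotine arrays 1 or 2 of the neocortex, or kainate arrays 2 or 4 or nicotine arrays 3 or 4 of the hippocampus. Prkce, a protein kinase C, differed by 0.50 ± 0.112 (SE, 0.0254), lost without kainate arrays 1 or 2 or nicotine array 5 of the neocortex or kainate array 4 of the hippocampus (adjusted p up to 0.0590), and its other probe set, the brighter one in the neocortex alone, gave 0.12 and was not called.

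**Figure D4:**
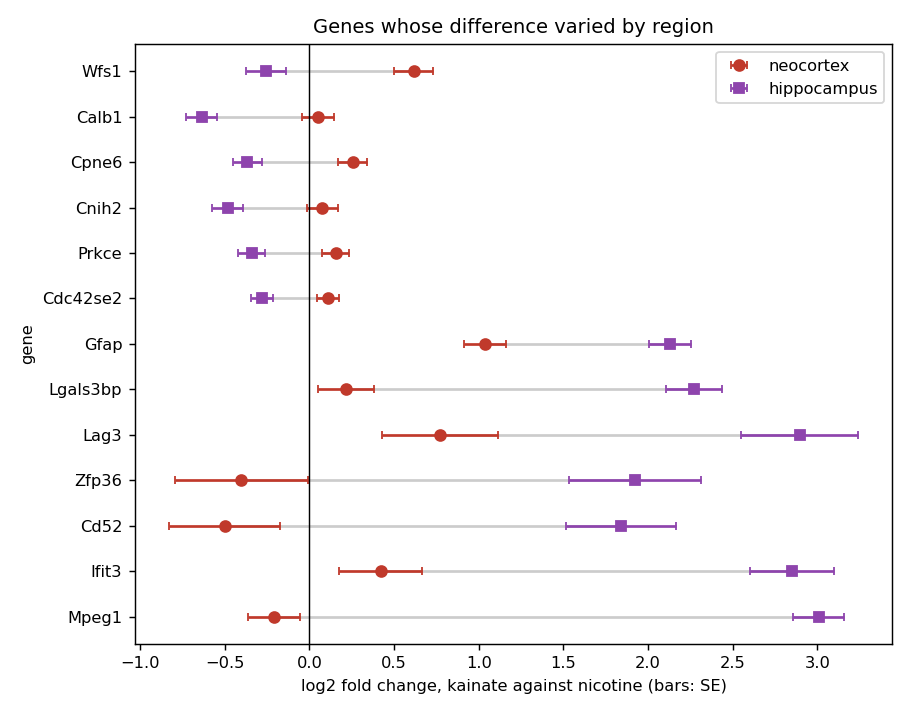
Log2 fold change of kainate against nicotine in the neocortex (circles) and the hippocampus (squares) for Gfap and the 12 genes with the highest and lowest called differences between regions, each by its brightest probe set over the 22 arrays. Bars are standard errors from limma's fit of 22 arrays. The 6 lowest by that rule, from Mpeg1 to Lgals3bp, lie between 1.84 and 3.01 in the hippocampus and between -0.50 and 0.77 in the neocortex. Lag3 is among them and was bright enough for testing only through the kainate hippocampus.

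The medians of the lists were also set side by side over members tested in both regions. Of 547 list genes tested in the neocortex, Gfap was the only one called. The median of the interferon response list was 0.15 in the neocortex and 0.62 in the hippocampus, that of antigen presentation 0.13 and 0.54, and that of complement 0.07 and 0.44. Cholesterol synthesis lay at -0.01 in the neocortex and -0.29 in the hippocampus, and GABA receptors and synthesis at 0.04 and -0.22. For immediate early genes (-0.12 and -0.13), neuropeptides (-0.11 and -0.16) and glucocorticoid targets (-0.21 and -0.21) the medians of the regions lay close together, and whether the medians differ was not tested. Among the 20 neuropeptides and trophic factors 1 gene was called different between regions, where 73 of all 8695 probe sets were. This was Penk, the precursor of enkephalins, at -0.45 in the neocortex and 0.89 in the hippocampus, a difference of -1.34 ± 0.276 (SE, limma adjusted p 0.0117). A second, dimmer Penk probe set gave 0.08 and 0.42, a difference of -0.34 ± 0.458 (SE) that was not called (limma adjusted p 0.956).

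**Figure D5:**
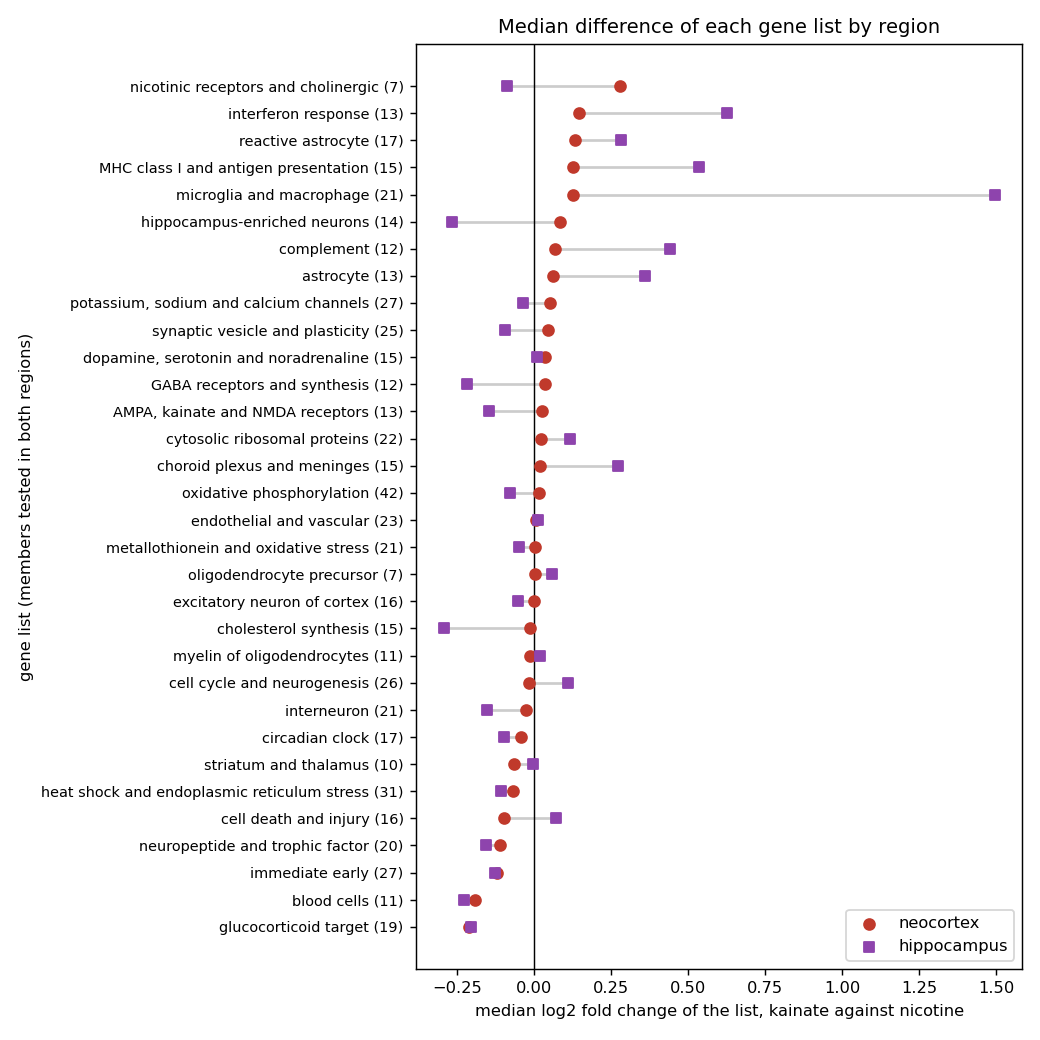
Median log2 fold change of each gene list, kainate against nicotine, in the neocortex (circles) and the hippocampus (squares), over the members tested in both regions, whose number is in brackets. Microglial genes lie at 0.13 and 1.496, and the glucocorticoid targets at -0.21 in both regions.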

How the data were processed

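Per the submitters' processing notes the authors made the deposited signal intensities with MAS5; its version and settings are not given in the sources used here. The 2% trimmed mean of each array was near 1000, so arrays had been scaled to 1 level, and that scaling was kept. Of 12488 probe sets, 66 controls were left out. Symbols came from the platform annotation, updated through Entrez identifiers for 10817 probe sets; 10833 had 1 symbol, 396 several and 1193 none, and no gene was named from several.

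Fold changes were computed on log2(signal + 16). Probe sets under the 30th percentile of mean level were left out, which left 8695 per fit. limma 3.58.1 (lmFit, eBayes with an intensity trend, R 4.3.3) gave fold changes, SE, p and Benjamini-Hochberg adjusted p over all of them, and was tested on simulated data. The main fit held 11 arrays. Each array stands for another mouse within a group, so p-values reflect variation among mice; the number of arrays limits the precision; detection calls were not used. Figures used Python 3.11.15 and matplotlib 3.10.9.

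The members, lists and alternatives were chosen with earlier results of these data known. Named were called genes (up to 15 a direction), otherwise the 10 of smallest p a direction, a set of listed genes whether called or not, and for the region difference the 6 highest and 6 lowest. The brightest tested probe set stood for a gene, over the 11 arrays or, for the region difference, over the 22, so Csf3r, called on a dimmer one, is named apart. C4b, Arc, Chrna4 and Slc17a7 had no probe set of 1 symbol and were not analysed here, and Chrnb2 was too dim to be tested. Alternatives covered pseudocount, filter, scaling, trend, array weights, arrays fitted, blocks and single arrays left out. Correlations of array pairs ran from 0.942 to 0.969, and 0 pairs were identical. In the hippocampus same-numbered kainate and nicotine arrays deviated together weakly (r from 0.11 to 0.28). The best-matching nicotine array had the same number only for kainate arrays 1 and 3, so a pairing by number was not established there. In the neocortex it was not borne out either.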

Additional observations from a re-analysis of the deposited data

Results flagged for a closer look

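Single arrays stood apart from the rest of their group for 9 of 50 named genes, with 10 arrays in all among 100 groups looked at, where chance alone gives about 1 in 20. With nicotine these were Irf1 on array 3 (326.6, the nearest other array 123.7), Ceacam2 on array 2 (259.8), Kcne1l on array 2 (235.0), Mrpl41 on array 6 (1814.1) and, as the lowest, Bdnf on array 6 (1697.1). With kainate they were Kcne1l on array 5 (476.2), Sh3bp1 on array 2 (746.7) and Gria2 on array 5 (25324.7), and, as the lowest, Krt1 on array 5 (149.0) and Grik2 on array 1 (432.5). Kainate array 5 and nicotine array 6 belong to the third control cluster.

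The kainate-nicotine difference varied between regions by limma's interaction test for the 12 genes named by the rule for region differences. The values are differences between log2 fold changes, not between levels. The kainate-nicotine difference was higher in the neocortex for Wfs1 (0.87), Calb1 (0.69), Cpne6 (0.62), Cnih2 (0.56), Prkce (0.50) and Cdc42se2 (0.39). It was lower there for Mpeg1 (-3.22), Ifit3 (-2.43), Cd52 (-2.34), Zfp36 (-2.33), Lag3 (-2.12) and Lgals3bp (-2.05). Lag3 was bright enough for testing only through the kainate hippocampus, so its call supports nothing. The Zfp36 call was lost in 18 of 22 fits that left out 1 array, and those of Cnih2, Cdc42se2 and Prkce were lost in part of them.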

How the results depend on the processing

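The main count of 1 called probe set became 0 without the intensity trend, with the replicate block, in the largest control cluster alone and without the third control cluster, 3 with the control clusters as a block and in the fit of the 17 arrays of the region, and 4 with array weights and in the fit of all 34 arrays. Leaving out 1 array gave 0 to 2 calls, with 0 without nicotine arrays 1 or 3 and 2 without nicotine array 4. Same-numbered kainate and nicotine neocortex arrays did not all deviate together (r from -0.02 to 0.15), so the pairing was not borne out there. The replicate block leaves nicotine array 6, which has no kainate partner, without influence, and gave Gfap a limma adjusted p of 0.0773. The 73 region differences became 46 with median centring and 18 in the largest control cluster alone. Kainate against saline gave 2 calls with quantile normalization and with array weights, 3 with the replicate block and 6 with the control clusters as a block. The cause of these changes was not tested, beyond the smaller number of arrays in fits that leave some out. The 2 settings that keep or drop a control cluster were chosen after seeing the data.

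Signs turned for genes near 0. Leaving out 1 array gave -0.488 to 0.0263 for Fos, -0.0872 to 0.0402 for Gad1, -0.0228 to 0.0797 for Gria2, -0.0160 to 0.112 for Grik2, -0.0507 to 0.0379 for Grik5, -0.0721 to 0.0414 for Idi1, -0.00813 to 0.114 for Mt1, -0.0218 to 0.0294 for Mt2, -0.162 to 0.0593 for Sst and -0.474 to 0.385 for Ttr. In the largest control cluster alone Chrna7 gave -0.0602, Grik2 -0.0475, Grik5 0.0803, Idi1 0.0154 and Mt1 -0.00596. Without the third control cluster Grik5 gave 0.0682, Idi1 0.0115, Mt2 -0.0149 and Ttr -0.256, and with the replicate block Grik5 gave 0.0379, Idi1 0.0174 and Ttr -0.252. Array weights gave 0.0594 for Grik5, 0.00911 for Idi1 and -0.00897 for Mt2, quantile normalization -0.0187 for Gria2 and -0.00704 for Mt2, and median centring 0.00389 for Grik5 and 0.00207 for Idi1. Dim probe sets are limited by background, since no detection call was used.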
